A study of Homo sapiens with 24 samples.

Results

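Described here is the response of MOLM-14, a human acute myeloid leukemia (AML) line of monocytic type, to the kinase inhibitor R406. The 6 MOLM-14 arrays were picked by the cell line named in the labels, out of 24 Affymetrix arrays in all. MOLM-14 cells had been kept for 24 h with R406 at 4 µM (3 arrays) or with its solvent dimethyl sulfoxide, DMSO (3 arrays). The treatment protocol states that dose in µM, and the study's design text states mM. The other 18 arrays hold U937, HL-60 and KG-1 cells in the same layout. They share in the estimate of each gene's spread behind every SE and p-value, and in the choice of probe sets. Their own responses are given only in the comparison near the end. Of 22277 probe sets, the 19724 with a single gene symbol were kept, and they stand for 12165 genes. Both MOLM-14 groups carry the same leukemia lesions, the MLL-AF9 (KMT2A-MLLT3) fusion and the FLT3 internal tandem duplication (FLT3-ITD). MOLM-14 is 1 line, tested at 1 dose and 1 time. The labels speak of triplicate treatment without saying that the cultures were independent, so p-values reflect only the spread among these samples, which may be technical.

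FLT3 is the receptor tyrosine kinase of early myeloid progenitors. The tandem duplication keeps it active without ligand, and it then signals through STAT5, through RAS and ERK, and through PI3K and AKT. ERK switches on genes for its own brakes, and AKT holds the FOXO transcription factors out of the nucleus. The MLL-AF9 fusion sustains a progenitor programme that includes MEIS1 and PBX3. R406, the active form of fostamatinib, was developed against SYK, a kinase that docks on ITAM adaptors below immune receptors and integrins, and it is known to inhibit FLT3 and further kinases as well.

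Array medians of the MOLM-14 arrays lay between 19.8 and 20.9, on a linear intensity scale that ran from 3.67 to 12362. The spread between replicates was wider with R406, with a median SD over genes of 0.13 on the log2 scale against 0.084 with DMSO, the widest of the 8 groups. A log2 ratio of the 3' to the 5' control probe sets of ACTB, a reading of RNA integrity, was 0.48 ± 0.028 with DMSO and 0.82 ± 0.0088 with R406 (SD, n = 3). That difference was 0.34. The same ratio for GAPDH was -0.22 ± 0.027 with DMSO and -0.14 ± 0.035 with R406, a difference of 0.078. Both differences had a 2-sided exact permutation p of 0.1, the lowest that 3 against 3 arrays can give. Their part in the results was not tested. Of 10 measured monocytic markers 6 rose and 2 fell, and their summed intensity went from 1228 to 1351 on the DMSO arrays to 2998 to 3008 on the R406 arrays. That sum rose mainly through CTSS (mean 534 with DMSO and 1449 with R406) and TYROBP (134 and 1001). FCGR1A, a marker that fell, had means of 310 and 211. CD14, a surface marker of mature monocytes, lay near the bottom of the scale on all 6 arrays (6.76, 7.53 and 7.31 with DMSO and 6.47, 7.66 and 9.28 with R406). Of the granulocytic markers 9 of 10 lay under the array median, as did 8 of 8 erythroid, 7 of 8 megakaryocyte, 6 of 6 B cell, 10 of 11 T and NK cell and 7 of 10 fibroblast and epithelial markers. The summed granulocytic markers went from between 89.8 and 93.1 to between 136 and 161, and the T and NK cell markers, mainly NKG7, from between 235 and 256 to between 375 and 411. The part of these markers in the results was not tested.

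Most measured genes differed between R406 and DMSO in MOLM-14. In limma's test, 6826 of 12165 genes were called at an adjusted p under 0.05 (56.1%), of which 3787 rose (31.1%) and 3039 fell (25%). Changes of at least 2-fold were more often falls, with 1102 genes (9.06%) against 779 that rose (6.4%). At 4-fold or more, 262 genes fell (2.15%) and 120 rose (0.986%). The 3 R406 arrays lay wholly above or wholly below the 3 DMSO arrays for 57.7% of genes. Counts for the gene lists below are to be read against these shares and against the median log2 difference of all genes, 0.068. "Rose" and "fell" are used of called genes. Differences subtract DMSO from R406 after adding 1 to each intensity and taking log2, carry the SE of the fit, and understate the change of dim genes. Intensities are given for replicates 1, 2 and 3 in that order. Fewer cells of a type and less transcript per cell cannot be told apart in bulk RNA. The plot of gene lists shows the range of responses, from nucleotide synthesis at the bottom to lysosomal hydrolases at the top.

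**Figure D1:**
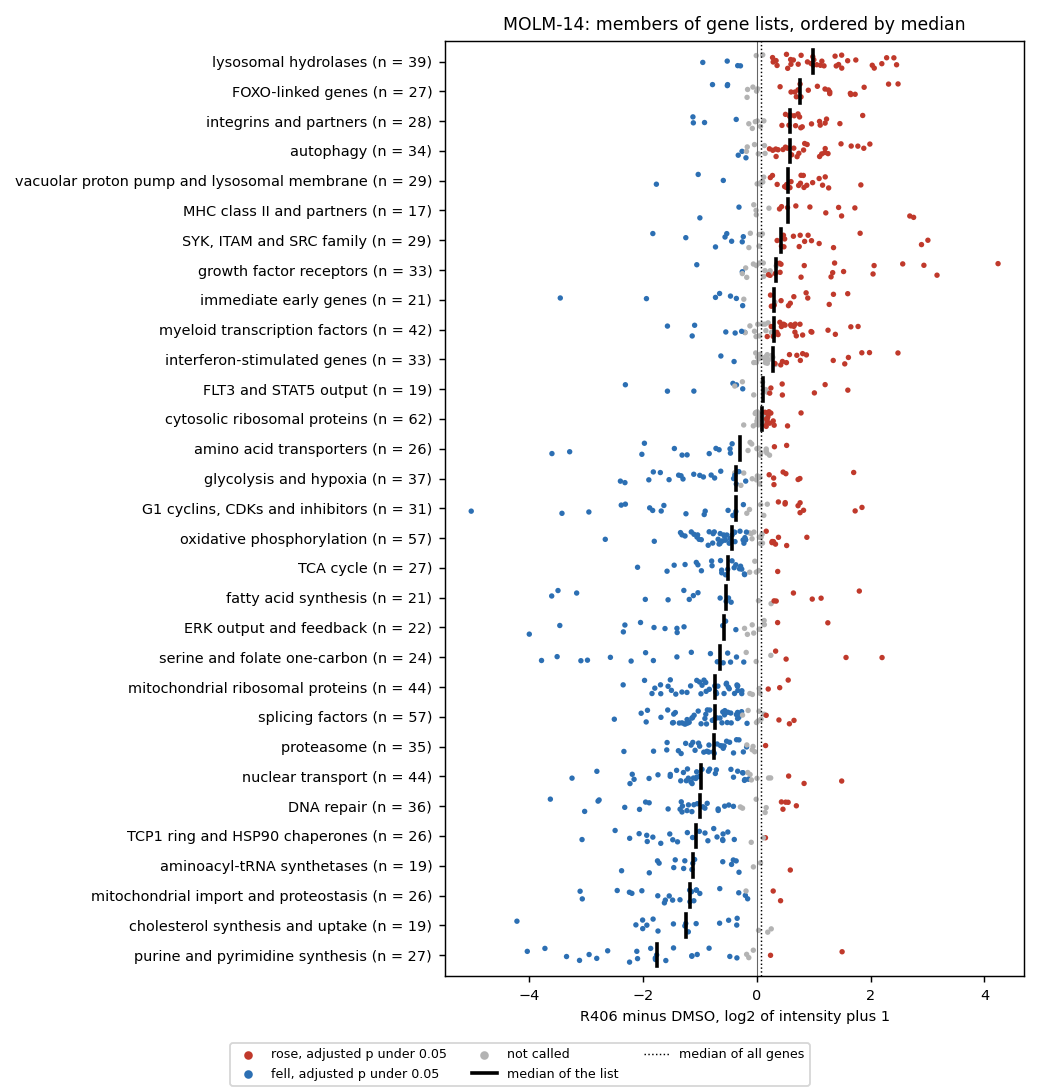
Log2 difference, R406 minus DMSO, of each measured member (points) of 31 gene lists in MOLM-14, 3 arrays against 3, with red for genes that rose, blue for genes that fell and grey for genes not called. Black bars are list medians and the dotted line is the median of all genes at 0.068. Lysosomal hydrolases have the highest median at 0.99 and purine and pyrimidine synthesis the lowest at -1.76.

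Growth factor receptors rose far more often than they fell, and FLT3 was among those that rose. In the receptor list 19 of 33 measured members rose and 2 fell (median 0.34). FLT3 itself had intensities of 915, 926 and 902 with DMSO and 2240.3, 2336 and 2213 with R406. The groups did not overlap, and the difference was 1.31 ± 0.14. KIT, the stem cell factor receptor, had intensities of 22.1, 15.5 and 15.99 with DMSO and 176, 119 and 136 with R406. It lay near the array median or under it with DMSO and rose by 2.94 ± 0.20, without overlap of groups. CSF1R, the receptor of the macrophage growth factor, had intensities of 16.8, 17.4 and 17.1 with DMSO and 61.5, 78.2 and 82.6 with R406 and rose by 2.04 ± 0.11.

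The highest log2 difference of the receptor list was that of AXL, a receptor tyrosine kinase of the TAM family. Its brighter probe set had intensities of 16.6, 14.5 and 14.8 with DMSO and 325, 328 and 268 with R406. These groups were far apart, at 4.24 ± 0.10, while a dimmer probe set of AXL moved by 0.53. GAS6, the ligand of AXL, fell by 1.05, and the related receptor TYRO3 was at -0.25. The TYRO3 call ended in 8 alternatives, among them the fits without DMSO replicate 2 or 3 or R406 replicate 1 or 3 (-0.19, -0.26, -0.26 and -0.18). IL10RA, the chain that binds interleukin 10, had intensities of 18.1, 14.3 and 18.7 with DMSO and 151, 161 and 169.5 with R406 and rose by 3.17 ± 0.10. Its partner chain IL10RB rose by 1.37, IL13RA1 by 2.57 and TGFBR2, a receptor of TGF-beta, by 1.34.

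Genes known to follow FLT3 and STAT5 did not share a direction. In that list 7 of 19 measured members rose and 6 fell (median 0.10). CCND2, cyclin D2 of the G1 phase, had intensities of 1053, 1094 and 1068 with DMSO and 247, 192 and 212 with R406. It fell clear of the DMSO range, at -2.31 ± 0.078. CISH, a feedback inhibitor that STAT5 induces, had intensities of 129, 110.3 and 108 with DMSO and 51.3, 52.8 and 55.2 with R406 and was at -1.10 ± 0.11. ID1, which blocks differentiation factors, fell as well (-1.57). PIM1, a kinase gene that STAT5 induces, was only slightly lower, at -0.35 ± 0.10. PIM2 (-0.25, adjusted p = 0.0525) and SOCS2 (0.19, adjusted p = 0.183) did not pass the test. Other members rose, namely BCL6, a repressor that STAT5 can hold down (1.60), the adhesion receptor CD44 (1.20) and STAT5A itself (1.01).

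Genes of ERK output and feedback mostly fell. In this list 13 of 22 measured members fell and 2 rose (median -0.57). DUSP6, a phosphatase that turns ERK off, had intensities of 286, 268 and 293 with DMSO and 15.7, 15.1 and 19.9 with R406. The R406 values lay near the array median or under it and the DMSO values well above it, at -3.99 ± 0.10 (adjusted p = 1.30e-18). SPRY2, a brake on receptor signalling, had intensities of 255, 262 and 241 with DMSO and 49.1, 45.6 and 56.02 with R406 and was at -2.31 ± 0.091. The ETS factor ETV5 (-3.46) and the phosphatase DUSP5 (-2.04) fell in the same comparison. DUSP10, which acts mainly on the stress kinases p38 and JNK, rose by 1.25, and DUSP7 was at 0.37, a call that ended when probe sets were averaged.

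Immediate early genes split. EGR1, the growth-induced zinc finger factor, had intensities of 186, 128 and 162 with DMSO and 12.97, 12.7 and 14.8 with R406. It fell by 3.45, and its relative EGR3 fell by 1.94. ZFP36 (1.27), ZFP36L1 (1.60) and ZFP36L2 (0.87), whose proteins bind and destabilise AU-rich mRNAs, rose together. In the list as a whole 12 of 21 measured members rose and 7 fell (median 0.31).

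FOXO-linked genes, which AKT signalling keeps low, were among the lists with most rises. In this list 19 of 27 measured members rose and 3 fell (median 0.76), and 11 rose at least 2-fold. TSC22D3, also known as GILZ and named after its values were seen, had intensities of 237, 199.7 and 225 with DMSO and 1341, 1207 and 1167 with R406. It rose by 2.48 ± 0.17 with no overlap of groups. PIK3IP1, an inhibitor of PI3K, had intensities of 19.5, 19.8 and 17.5 with DMSO and 86.7, 98.4 and 111 with R406 and rose by 2.32 ± 0.14. CCNG2, a cyclin tied to arrest, had intensities of 168, 156 and 142 with DMSO and 489, 528 and 533 with R406 and rose by 1.73 ± 0.10. PINK1 (1.65), a kinase of mitochondrial quality control, the thioredoxin inhibitor TXNIP (1.26), catalase CAT (1.20) and the quiescence factor KLF2 (0.78) rose too. FOXO1 (1.28) and FOXO3 (1.07), named here after their values were seen, rose themselves. SOD2 (-0.78), IL7R (-0.51) and CITED2 (-0.52) fell. The word GTAAACA, a FOXO-type motif searched on both strands over the 250 bases before the gene start, was present in 4 of 25 FOXO-linked promoters (16%) and in 2.13% of all 9711 promoters searched. It was also present in 3 of 20 MLL-fusion-linked promoters (15%) and 3 of 30 growth factor receptor promoters (10%).

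**Figure D2:**
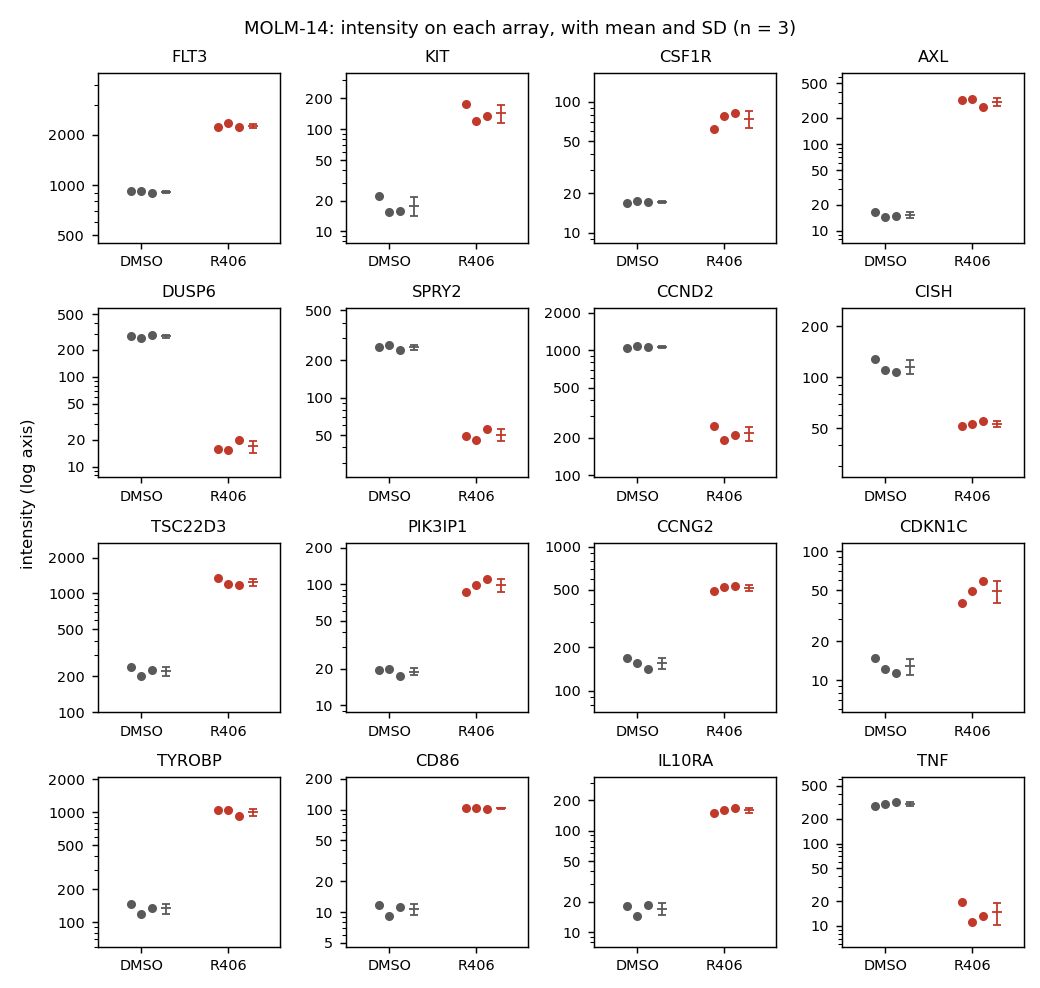
Intensity on each of the 6 MOLM-14 arrays for 16 genes (log axis), with the mean and SD of each group (n = 3) beside the points. No gene shown has an R406 array within the range of its DMSO arrays. DUSP6, SPRY2, CCND2, CISH and TNF lie lower with R406 and the other 11 lie higher.

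In the list of the MYC network 4 of 13 measured members rose and 1 fell (median 0.20). That rising share, 30.8%, was near the 31.1% of all genes. The member that fell was MYC itself, which drives growth, at -3.38. MXD4, which competes with MYC for its partner MAX, had intensities of 43.5, 34.4 and 41.96 with DMSO and 99.4, 119 and 88.5 with R406 and rose by 1.33 ± 0.12. MXD1 was at 0.25 (adjusted p = 0.105) and MXI1 rose by 0.30.

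Genes of the G1 phase fell more often than they rose, and inhibitors of cyclin-dependent kinases were among those that rose. In this list 17 of 31 measured members fell and 9 rose (median -0.37). CCNE1, cyclin E1, had intensities of 80.9, 102 and 94.98 with DMSO and 8.14, 7.70 and 7.34 with R406 and was at -3.42 ± 0.092. CDK4 (-1.88), the kinase partner of D cyclins, and CDC25A (-2.95), the phosphatase that activates CDK2, fell as well. CDKN1C, the inhibitor p57, had intensities of 14.9, 12.3 and 11.3 with DMSO and 39.5, 49.4 and 58.5 with R406. It rose by 1.85 ± 0.14, more than p27 (CDKN1B, 0.76) and p21 (CDKN1A, 0.50) in log2 difference.

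Enzymes that build nucleotides had the lowest median of the metabolic lists. In the purine and pyrimidine list 22 of 27 measured members fell and 2 rose (median -1.76), and 19 fell at least 2-fold. NME1, a nucleoside diphosphate kinase, had intensities of 2811, 2847 and 2803 with DMSO and 170.0, 162 and 184 with R406. It was the lowest member at -4.03 ± 0.11. PAICS, an enzyme of purine ring assembly, had intensities of 1342, 1399.8 and 1301 with DMSO and 106, 94.6 and 104 with R406 and was at -3.72 ± 0.10. CTPS1, which makes CTP, was at -2.94. Adenosine deaminase ADA, which breaks purine nucleosides down, rose by 1.50.

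Genes of serine, folate and polyamine metabolism also fell more often than they rose. In the serine and folate list 17 of 24 measured members fell and 4 rose (median -0.64). PSAT1, of serine synthesis, had intensities of 566, 517 and 514 with DMSO and 37.9, 46.8 and 30.5 with R406 and was at -3.78 ± 0.19. The cystathionine synthase CBS (-2.97) and GCSH, the carrier protein of glycine cleavage (-3.50), fell. AMT, the aminomethyltransferase of that same glycine cleavage system, rose by 2.20. In the polyamine list 8 of 17 measured members fell and 2 rose (median -0.15). ODC1, the entry enzyme of polyamine synthesis, was at -1.66, and EIF5A, the protein modified with a polyamine, at -1.80.

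Amino acid transporters fell more often than they rose. In their list 13 of 26 measured members fell and 2 rose (median -0.29). SLC7A1, an arginine and lysine transporter, had intensities of 1255, 1296 and 1269 with DMSO and 89.8, 109.6 and 116 with R406 and was at -3.60 ± 0.078. SLC7A5, the leucine exchanger, was at -3.28 and its partner chain SLC3A2 at -1.31. The glutamine carrier SLC1A5 was at -1.45. CTNS, which exports cystine from the lysosome, rose by 0.53.

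Lipid building genes mostly fell, with exceptions among fatty acid genes. In the cholesterol list 16 of 19 measured members fell and 0 rose (median -1.25), with HMGCS1 at -2.001 and DHCR7 at -2.003. In the fatty acid list 13 of 21 measured members fell and 6 rose (median -0.54). SCD, the desaturase that makes oleate, had intensities of 2934, 3032 and 2693 with DMSO and 233, 248 and 289.5 with R406 and was at -3.49 ± 0.11. FADS1, a desaturase of long polyunsaturated chains, was at -3.60. Fatty acid synthase FASN was at -3.16 by its brightest probe set, and its probe sets ranged from -3.16 to 0.62 with calls in both directions. ACACA, the cytosolic acetyl-CoA carboxylase, was at -1.56, whereas ACACB, the mitochondrial form that restrains fat burning, rose by 1.80. SREBF1, a master factor of lipid synthesis, was at -1.28.

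Genes of energy metabolism were also called lower more often than higher. In the list of glycolysis and hypoxia genes 20 of 37 measured members fell and 8 rose (median -0.36). Phosphofructokinase PFKP was at -1.54 and enolase ENO1 at -1.37, while the oxygen-regulated demethylase KDM3A rose by 1.70. In the TCA cycle list 22 of 27 measured members fell and 1 rose (median -0.51), with the 2-oxoglutarate dehydrogenase subunit DLST at -2.09. In the oxidative phosphorylation list 39 of 57 measured members fell and 9 rose (median -0.43). The ATP synthase gene ATP5MC1 was at -2.66 and cytochrome c (CYCS) at -1.80, and NDUFB5 of complex I rose by 0.88.

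The parts of protein making differed. Of aminoacyl-tRNA synthetases, which charge tRNAs, 16 of 19 measured members fell and 1 rose (median -1.12), with VARS1 at -2.37. Of mitochondrial ribosomal proteins, 37 of 44 measured members fell and 3 rose (median -0.73), with MRPS2 at -1.97. Of cytosolic ribosomal proteins, 23 of 62 measured members rose and 0 fell (median 0.10). Called values were small, such as 0.54 for RPL27A and 0.31 for RPL35. The share of cytosolic ribosomal proteins that rose was 37.1%, and it moved from 12.9% with median centring to 58.1% with a pseudocount of 16, and the cause of that shift was not tested. Of translation factors, 19 of 42 measured members fell and 11 rose (median -0.064), with the cap-binding protein EIF4E at -1.85 and its inhibitor EIF4EBP1 at -1.67. EIF3F (0.47) and EIF3H (0.51), of the initiation complex EIF3, rose.

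Most measured members of 3 lists that hold protein-folding chaperones fell. In the list of the TCP1 ring and HSP90 system 23 of 26 measured members fell and 1 rose (median -1.07), with HSP90AB1 at -2.06 and its partner FKBP4 at -3.07. In the list of endoplasmic reticulum chaperones 27 of 41 measured members fell and 5 rose (median -0.41), with SDF2L1 at -3.07. In the mitochondrial import list 23 of 26 measured members fell and 2 rose (median -1.17), which was 88.5% of members. HSPE1, the small lid of the mitochondrial folding chamber, had intensities of 2045, 2307 and 2439 with DMSO and 305, 215 and 297 with R406 and was at -3.06 ± 0.11. HSPA9, the mitochondrial HSP70, had intensities of 1739, 1849 and 1802 with DMSO and 634, 553 and 567 with R406 and was at -1.62 ± 0.071. All 3 R406 arrays of both genes were below all 3 DMSO arrays.

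CACGTG is the E-box word that MYC and MAX can bind and that TFEB-type factors can bind as well. HSPE1 and HSPA9 were chosen for display because their promoters hold it, so the match in these genes is not a result. Their windows below, 5' to 3' on the gene's strand, end at the base before the annotated gene start, and capitals mark the word. They come from RefSeq on build GRCh38.p14, at chr2:197500293-197500378 (plus strand) for HSPE1 and chr5:138575402-138575487 (minus strand) for HSPA9.
HSPE1: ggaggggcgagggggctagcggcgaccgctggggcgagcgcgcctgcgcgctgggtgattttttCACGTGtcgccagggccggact
HSPA9: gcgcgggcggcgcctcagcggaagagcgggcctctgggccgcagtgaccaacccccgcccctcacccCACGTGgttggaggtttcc
The word starts 22 bases before the gene start in HSPE1 and 19 bases before it in HSPA9. CACGTG reads the same on both strands, and it was present within 250 bases before the start in 5 of 22 mitochondrial import genes (22.7%) and in 8.29% of all 9711 promoters searched. The share was 0 of 24 for the TCP1 ring and HSP90 list, 5.26% for mitochondrial ribosomal proteins and 6.90% for ribosome biogenesis. Members of these lists also mostly fell. Among other lists that mostly fell, the share was 20% for purine and pyrimidine synthesis, 16.1% for DNA replication and E2F and 15.4% for nuclear transport. The share was 31.8% for the proton pump and lysosomal membrane list, whose members mostly rose. It was 10.4% of genes that fell at least 2-fold, 7.81% of genes that rose at least 2-fold and 7.01% of genes not called. A match is a description of the letters and not a binding site.

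Most lysosomal genes rose. In the hydrolase list 33 of 39 measured members rose and 4 fell (median 0.99), and 18 rose at least 2-fold. MANBA, a mannosidase, had intensities of 55.96, 50.8 and 59.8 with DMSO and 287, 331 and 281 with R406. It rose by 2.41 ± 0.10 without overlap of groups. ASAH1, acid ceramidase, had intensities of 356, 346 and 364 with DMSO and 1704, 1721 and 1778 with R406 and rose by 2.28 ± 0.082. FUCA1, a fucosidase, rose by 2.20 and GM2A, the activator of ganglioside breakdown, by 2.03. PPT1 (-0.52), CTSH (-0.95) and CTSC (-0.28) fell. In the list of the proton pump and lysosomal membrane 21 of 29 measured members rose and 3 fell (median 0.55), with the sialic acid exporter SLC17A5 at 1.83 and the cholesterol transporter NPC1 at 1.26. LAPTM4B, a membrane protein of that list, fell (-1.76) where its relatives LAPTM4A (1.10) and LAPTM5 (0.88) rose.

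CTSD, cathepsin D, had intensities of 29.5, 28.8 and 29.5 with DMSO and 73.6, 93.97 and 86.2 with R406 and rose by 1.49 ± 0.089. Its promoter holds the same CACGTG word and is shown, chosen after its values were seen, because the word sits before a gene that rose. The window lies at chr11:1763929-1764014 (minus strand), from RefSeq on GRCh38.p14, with the word starting 47 bases before the gene start. It is centred on the word and so stops just short of the base before the gene start.
CTSD: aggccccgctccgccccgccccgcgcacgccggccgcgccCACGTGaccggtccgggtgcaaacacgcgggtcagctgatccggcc
Of the lysosomal hydrolase promoters 6 of 27 hold CACGTG (22.2%), and of the proton pump and membrane promoters 7 of 22 (31.8%). The word was thus found in lists that rose and in lists that fell.

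Most autophagy genes rose too. In this list 25 of 34 measured members rose and 3 fell (median 0.58). GABARAP, which coats the autophagosome, had intensities of 649.9, 629.8 and 589 with DMSO and 2196, 2089 and 2125 with R406 and rose by 1.78 ± 0.068. MAP1LC3B, a protein of the same family, rose by 1.48 and the cargo receptor NBR1 by 1.20. TFEB (1.25) and TFE3 (1.65), the factors that drive lysosomal genes, rose as transcripts. The mitophagy receptor BNIP3L rose by 1.88, while its relative BNIP3, a hypoxia-induced gene, was at -1.69.

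Myeloid transcription factors rose more often than they fell, mostly by less than 2-fold. In this list 24 of 42 measured members rose and 7 fell (median 0.30). ETS2 rose by 1.78, LYL1 by 1.38 and STAT3 by 0.97. SPI1 (PU.1) was at 0.43, CEBPA at 0.47 and CEBPB at 0.30. The SPI1 call ended without R406 replicate 2 (0.34). The CEBPB call ended with median centring (0.25) and without DMSO replicate 2 or 3 or R406 replicate 2 (0.29, 0.30 and 0.20). Among genes linked to MLL fusions 13 of 25 measured members rose and 7 fell (median 0.33). MEIS1, a cofactor of HOX proteins, had intensities of 283, 313 and 290.0 with DMSO and 619, 616 and 580.3 with R406 and rose by 1.03. PBX3 rose by 1.16 and cyclin A1, CCNA1, by 2.25. HMGB3 was at -1.90, MEN1 at -0.67 and RUNX2 at 0.10 (adjusted p = 0.469). MEF2C was at 0.38, with called probe sets in both directions, and its call ended in 9 alternatives, among them the fits without any 1 of the 6 arrays (0.33 to 0.40).

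Surface receptors of macrophages rose more often than they fell. In this list 18 of 36 measured members rose and 5 fell (median 0.23). CD86, which costimulates T cells, had intensities of 11.6, 9.18 and 11.1 with DMSO and 103, 103 and 102 with R406. It was near the bottom of the scale with DMSO and rose by 3.16 ± 0.14. CD9, a tetraspanin, had intensities of 50.5, 51.9 and 56.4 with DMSO and 444, 401 and 512 with R406 and rose by 3.07 ± 0.11. CD36, a scavenger receptor for lipids, rose by 2.34. The tetraspanin CD81 (-0.95) and CD48 (-1.19), a ligand of a natural killer cell receptor, fell, and CD14 was at 0.091 (adjusted p = 0.581).

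Secreted and granule proteins moved in both directions. In the list 14 of 34 measured members rose and 8 fell (median 0.23). PRTN3, proteinase 3 of primary granules, had intensities of 343, 372 and 359 with DMSO and 35.6, 44.3 and 34.1 with R406 and was at -3.21 ± 0.18. MPO, myeloperoxidase, was at -1.74 and S100A9, a calcium-binding alarm protein, at -2.85. Progranulin GRN (1.45), cathepsin S (CTSS, 1.44) and GPNMB (1.64) rose. In the S100 and annexin list 9 of 22 measured members rose and 3 fell, and S100A9 was the lowest member. S100A4 (1.49), S100A6 (1.36) and annexin ANXA1 (1.32) rose.

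Signalling genes around SYK rose more often than they fell. In that list 16 of 29 measured members rose and 8 fell (median 0.44). SYK had intensities of 346, 342 and 355 with DMSO and 272, 291 and 313 with R406 and was at -0.25 ± 0.065, a call that ended when quantile normalization was repeated or probe sets were averaged. TYROBP (DAP12), an ITAM adaptor that recruits SYK, had intensities of 148, 120.0 and 134 with DMSO and 1043, 1041 and 919 with R406. The R406 arrays lay far above the DMSO arrays, at 2.90 ± 0.10. BLNK, a scaffold that SYK phosphorylates, had intensities of 19.5, 20.7 and 20.05 with DMSO and 182, 128 and 206 with R406 and rose by 3.01 ± 0.11. The ubiquitin ligase CBLB, which restrains kinase signalling, rose by 1.82 and the phospholipase PLCG2 by 0.96. CARD9, which relays SYK signals to NF-kB, was at -1.82.

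Inhibitory receptors, which oppose ITAM signalling, and integrins were next. Of inhibitory receptors and phosphatases 11 of 18 measured members rose and 2 fell (median 0.41), a share of 61.1% that was 33.3% without probe sets open to related transcripts. PECAM1 rose by 2.24, LILRB1 by 1.45 and PTPRC (CD45) by 1.35. Of integrins and partners 18 of 28 measured members rose and 4 fell (median 0.59). ICAM3 (1.86), the P-selectin ligand SELPLG (1.46) and vinculin VCL (1.10) rose. ITGB2 (-0.92), the focal adhesion kinase PTK2 (-1.12) and ICAM2 (-1.11) fell. ITGAV rose by 0.96. Integrin beta 3, ITGB3, had intensities of 8.86, 8.04 and 9.88 with DMSO and 9.47, 9.27 and 9.37 with R406 and was at 0.067 (adjusted p = 0.676), all under the array median.

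Inflammatory cytokines did not share a direction. In the list 11 of 33 measured members rose and 8 fell (median -0.0017). The median of that list lay just below 0 although more members rose. TNF had intensities of 286, 300.1 and 319 with DMSO and 19.5, 11.1 and 13.1 with R406, at -4.31 ± 0.16 (adjusted p = 4.65e-16). Lymphotoxin beta, LTB, was at -1.49. Interleukin 18 (IL18, 1.98), the chemokine CCL23 (1.46) and BCL3, a nuclear partner of NF-kB (2.22), rose. LY96 (MD-2), which lets TLR4 see endotoxin, had intensities of 21.8, 22.1 and 14.4 with DMSO and 143, 136 and 129.9 with R406 and rose by 2.77 ± 0.14. TLR2 was at -0.92. Of Toll-like receptors and adaptors 8 of 24 measured members rose and 3 fell (median 0.032). The rising shares of the Toll-like receptor, cytokine, chemoattractant receptor, BCL2 family and FLT3 and STAT5 lists were near that of all genes (31.1%).

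Of interferon-stimulated genes 15 of 33 measured members rose and 2 fell (median 0.28). ISG20, a nuclease, had intensities of 13.5, 11.5 and 10.4 with DMSO and 64.6, 72.6 and 73.9 with R406 and rose by 2.48 ± 0.11. The DNA sensor IFI16 (1.98), IRF9 (1.61) and GBP2 (1.85) rose, while BST2 (-0.63) and IFITM1 (-0.40) fell.

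The antigen presentation lists went different ways. For MHC class II 11 of 17 measured members rose and 2 fell (median 0.54). HLA-DMA, which loads peptides in the endosome, had intensities of 24.1, 25.2 and 22.8 with DMSO and 159, 163 and 159 with R406 and rose by 2.69 ± 0.10. HLA-DMB, its partner, rose by 1.73, and HLA-DOB, which restrains that pair, was at -0.997. In the MHC class I list 9 of 19 measured members fell and 8 rose (median -0.12). The proteasome parts PSME2 (-1.80) and PSMB8 (-1.36) and the chaperone CALR (-1.07) fell, and HLA-E (1.13) and HLA-B (0.63) rose. HLA genes are closely related and their probe sets can take up each other's transcripts. In the proteasome list 30 of 35 measured members fell and 1 rose (median -0.74), with the activator PSME3 at -2.33.

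Eicosanoid and lipid mediator genes rose in places. In the eicosanoid list 11 of 24 measured members rose and 2 fell (median 0.19). DPEP2, a dipeptidase of leukotriene processing, had intensities of 13.5, 14.2 and 14.2 with DMSO and 199.8, 187 and 174 with R406 and rose by 3.65 ± 0.11. PTGDS, a prostaglandin D synthase, had intensities of 8.92, 8.95 and 8.59 with DMSO and 103, 113 and 104 with R406 and rose by 3.45 ± 0.086. ALOX5 (1.62), its activating protein ALOX5AP (1.35) and LTA4H (1.18), the leukotriene A4 hydrolase, rose together. Among chemoattractant receptors 10 of 28 measured members rose and 7 fell (median 0.076). The nucleotide receptor P2RY2 was at -2.76 and CCR2 at -1.07, against 2.25 for the fractalkine receptor CX3CR1 and 2.05 for the prostaglandin E2 receptor PTGER4.

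Cell death genes were divided. In the BCL2 and caspase list 12 of 32 measured members fell and 10 rose (median -0.081). BCL2, which guards against apoptosis, was at -0.76 by its brightest probe set, with a called probe set in the other direction. MCL1 was at -0.24, a call that ended with repeated quantile normalization or without _x_at and _s_at probe sets. BCL2L11 (BIM), which sets apoptosis off, had intensities of 43.98, 52.3 and 42.02 with DMSO and 52.7, 88.98 and 89.99 with R406 and rose by 0.70 ± 0.17, with the lowest R406 array just above the highest DMSO array. BID was at -1.41, CASP9 rose by 1.21 and BIRC2 by 1.11. In the p53 list 11 of 22 measured members rose and 5 fell (median 0.33), with XPC at 1.32, TIGAR at -1.15 and FAS at -0.91.

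DNA repair and chromatin genes were unlike. In the repair list 26 of 36 measured members fell and 5 rose (median -0.99). EXO1, an exonuclease of mismatch and break repair, had intensities of 241, 271 and 264 with DMSO and 24.6, 16.7 and 19.5 with R406 and was at -3.62 ± 0.18. MSH6 was at -1.56 and the helicase BLM at -1.95, while XPA (0.51), ERCC1 (0.46) and ATM (0.55) rose. In the chromatin list 23 of 52 measured members fell and 18 rose (median 0.020). The median of that list lay just above 0 although more members fell. The histone methyltransferases EZH2 and EZH1 moved in opposite directions. EZH2 had intensities of 227, 227 and 229.8 with DMSO and 88.8, 73.1 and 104 with R406, at -1.37 ± 0.10. EZH1 had intensities of 30.3, 26.97 and 34.2 with DMSO and 115, 116 and 109.8 with R406, at 1.87 ± 0.13. HDAC5 rose by 1.83, and the histone chaperone ASF1B (-2.52) and the maintenance methyltransferase DNMT1 (-1.35) fell.

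Most genes of splicing, nuclear transport and RNA polymerases I and III fell. Of splicing factors 46 of 57 measured members fell and 4 rose (median -0.74), with HNRNPAB at -2.50 and SRSF2 at -1.56, and with SF3B1 at 0.39. Of nuclear transport genes 35 of 44 measured members fell and 3 rose (median -0.98), with RANBP1 at -3.24, and with NUP214 at 0.83, a call that ended without _x_at and _s_at probe sets. Of RNA polymerase I and III genes 22 of 33 measured members fell and 3 rose (median -0.56).

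Heme, iron and xenobiotic genes moved in both directions. HMOX1, which breaks heme down, had intensities of 20.2, 17.8 and 17.6 with DMSO and 157, 142 and 117 with R406 and rose by 2.83 ± 0.14. BLVRB, a biliverdin reductase, rose by 2.22, and HMOX2, the constitutive form, was at -1.78. The transferrin receptor TFRC was at -1.98. In the antioxidant list 17 of 33 measured members fell and 10 rose (median -0.24). SELENOP, a secreted selenium carrier, had intensities of 9.97, 13.2 and 8.70 with DMSO and 430.4, 324 and 510.3 with R406. PRDX4, a peroxidase of the endoplasmic reticulum, was at -2.89 and NQO1 at -1.13. CYP1B1, induced through the aryl hydrocarbon receptor, rose by 2.06, whereas CYP1A1 had intensities of 10.4, 11.1 and 11.04 with DMSO and 12.7, 10.9 and 12.5 with R406 and was at 0.14 (adjusted p = 0.537).

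Outside the lists, several genes far from myeloid biology were among the highest differences named here. PRL, the pituitary hormone prolactin, had intensities of 9.21, 8.60 and 8.71 with DMSO and 154, 174 and 169 with R406 and rose by 4.08 ± 0.10. SERPINF1, an inhibitor of vessel growth, had intensities of 16.3, 15.7 and 15.8 with DMSO and 302, 244 and 249 with R406 and rose by 3.97 ± 0.12. YPEL5 rose by 3.22, SGK1, a kinase related to AKT, by 2.95 and the leptin receptor LEPR by 2.89. Among the lowest, IGFBP2, which binds insulin-like growth factors, had intensities of 191, 206 and 205 with DMSO and 11.2, 8.12 and 9.23 with R406 and was at -4.27 ± 0.18. The neuropeptide gene GAL was at -3.98 by its brighter probe set, while its dimmer probe set was at -0.20 and not called. MARCKSL1 was at -3.97, BATF3 at -3.76 and the phosphatase ACP3 at -3.73.

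The response of MOLM-14 was set against the mean of U937, HL-60 and KG-1 in the same limma fit, gene by gene. The difference was called for 5580 of 12165 genes (45.9%), with MOLM-14 higher for 2869 (23.6%) and lower for 2711 (22.3%). Each line alone had fewer calls than MOLM-14, with 11.5% of genes in U937, 15.2% in HL-60 and 44.3% in KG-1. AXL changed by -0.12 in U937, 0.023 in HL-60 and 0.12 in KG-1, so the difference of MOLM-14 from their mean was 4.23 ± 0.12 (adjusted p = 4.37e-17). For IL10RA the other lines gave 0.31 in U937, 0.68 in HL-60 and -0.070 in KG-1, a difference of 2.86 ± 0.12. CD9 gave -0.32 in U937, 0.19 in HL-60 and -0.22 in KG-1, a difference of 3.18 ± 0.13. The rise in MOLM-14 was the largest of the 4 lines for each of the 3 genes.

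**Figure D3:**
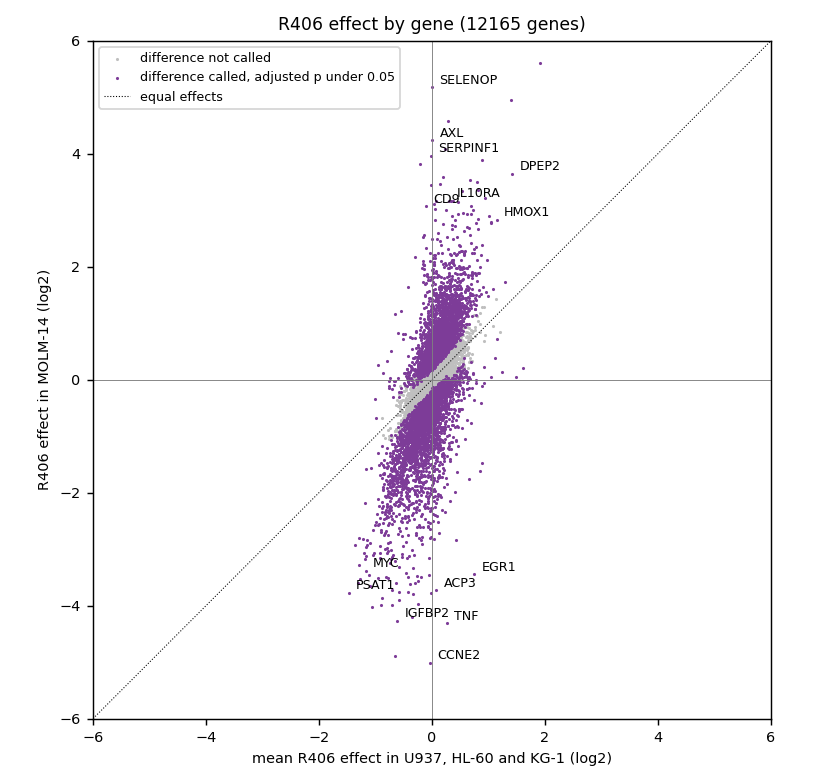
Log2 effect of R406 in MOLM-14 (vertical axis) against its mean effect in U937, HL-60 and KG-1 (horizontal axis) for 12165 genes, with 14 genes named. Purple points are the 5580 genes whose difference was called, and the dotted line marks equal effects. AXL lies at 4.24 on the vertical axis and at 0.0080 on the horizontal axis.

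Among genes lower in MOLM-14, TNF gave -0.63 in U937, 1.35 in HL-60 and 0.050 in KG-1, a difference of -4.57 ± 0.18. EGR1 gave -1.42 in U937, 3.69 in HL-60 and -0.031 in KG-1, so HL-60 moved the opposite way and the difference was -4.20 ± 0.21. IGFBP2 gave -0.23 in U937, 0.054 in HL-60 and -1.66 in KG-1, a difference of -3.66 ± 0.21. MARCKSL1 gave -0.48 in U937, 0.47 in HL-60 and -0.71 in KG-1, a difference of -3.73 ± 0.11. HMOX1, by contrast, rose in further lines. It gave 1.38 in U937, 1.13 in HL-60 and 0.92 in KG-1, and its difference was 1.69 ± 0.16.

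Lists were counted in the same comparison. Of 39 lysosomal hydrolases, the MOLM-14 effect was called higher for 30 and lower for 2, and the median effect of the list in the other lines was 0.28. FOXO-linked genes were 17 higher and 5 lower, with a median of 0.11 in the other lines. ERK output genes were 2 higher and 13 lower, with a median of -0.16. Splicing factors were 2 higher and 44 lower, with a median of -0.17. Growth factor receptors were 15 higher and 2 lower, with a median of 0.11. Each of the other lines was also counted on its own, and differences between those lines were not tested. Of 22 ERK output genes, 10 fell and 1 rose in U937, 9 rose and 0 fell in HL-60, and 9 fell and 2 rose in KG-1. DUSP6 gave 0.028 in U937, 1.10 in HL-60 and -3.85 in KG-1, and ETV5 gave -0.81 in U937, 0.56 in HL-60 and -3.09 in KG-1, so KG-1 came close to the MOLM-14 values of -3.99 and -3.46 for both genes. Of 57 splicing factors, 3 fell and 0 rose in U937, 3 fell and 1 rose in HL-60, and 41 fell and 8 rose in KG-1. Of 39 lysosomal hydrolases, 18 rose and 1 fell in U937, 7 rose and 5 fell in HL-60, and 26 rose and 3 fell in KG-1. Of 27 FOXO-linked genes, 7 rose and 1 fell in U937, 4 rose and 3 fell in HL-60, and 16 rose and 2 fell in KG-1. Of 33 growth factor receptors, 2 rose and 3 fell in U937, 9 rose and 4 fell in HL-60, and 14 rose and 5 fell in KG-1.

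For some genes the direction depended on the probe set. Of 4505 genes with more than 1 probe set, 272 (6.04%) had called probe sets in both directions, and 6 genes had them at 2-fold or more each way, namely ABCF2, ARRB1, HES1, HNRNPD, SFPQ and VWA8. HES1, a target of NOTCH signalling, had intensities of 68.7, 74.3 and 59.04 with DMSO and 939, 939 and 982 with R406 on its brightest probe set, at 3.81. A dimmer HES1 probe set was at -1.26. SFPQ, a splicing factor, was at -1.79 on its brightest probe set, and another of its probe sets was at 1.04. VWA8 was at 1.71 and -1.92 on its 2 probe sets. A direction for these 6 genes therefore belongs to a probe set and not to the gene. In 1826 genes (40.5%) some probe sets were called, in 1 direction, and others were not. Among them were CBLB (1.82 and 0.12), VCL (1.10 and 0.17) and PTGER4 (2.05 and 0.28). The values given for such genes are those of the brightest probe set.

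**Figure D4:**
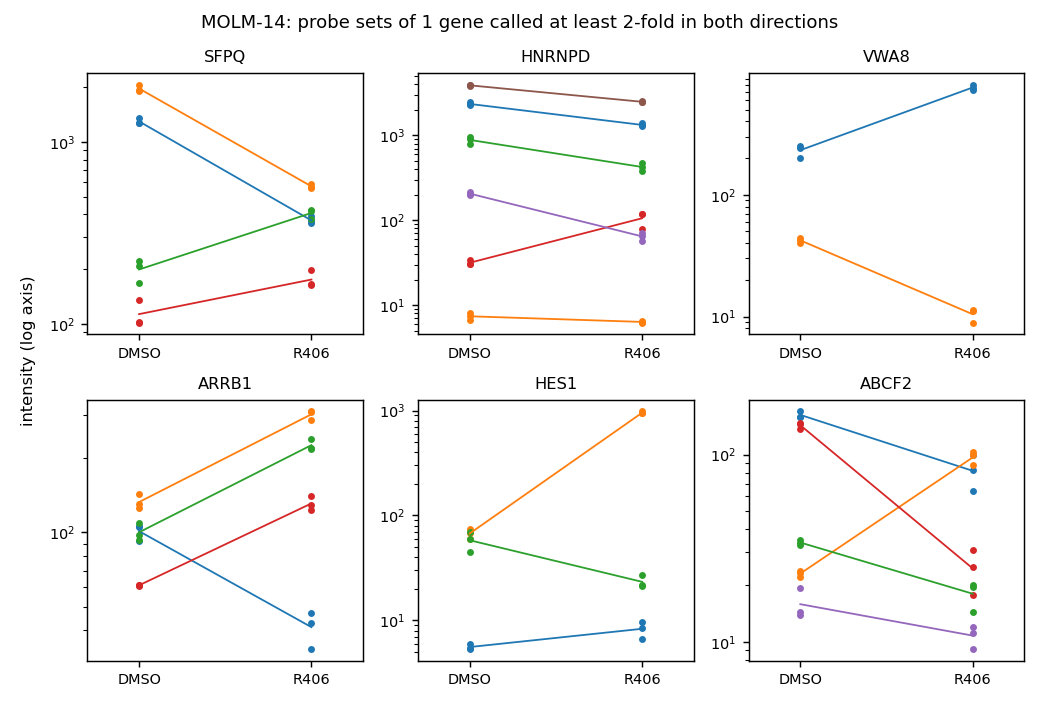
Intensity (log axis) on the 6 MOLM-14 arrays of each probe set of the 6 genes with calls of at least 2-fold in both directions. Points are arrays and lines join the group means with DMSO and R406. In each panel at least 1 line rises and at least 1 falls.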

How the data were processed

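Intensities of HT U133A arrays were deposited as a linear-scale table made with RMA, per the submitters' processing notes. The version, build and normalization steps are not given in the sources used here, and the scale was read from the values. RMA usually includes quantile normalization, under which a shift of the whole transcriptome cannot be seen. Probe sets with several symbols (568), with none listed (1923) and controls (62) were left out. The probe set with the highest mean log2 value stood for a gene, and 5111 genes are read by _x_at or _s_at probe sets, which can take up related transcripts. A linear model with 8 group means over 24 arrays was fitted to log2 of the intensity plus 1 with limma 3.58.1 in R 4.3.3 (16 residual degrees of freedom), with Benjamini-Hochberg adjustment over 12165 genes. The fit was checked on simulated data. Groups follow the cell line and treatment in the labels. The number of arrays limits the precision.

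The comparison, the 59 gene lists (1662 of 1858 genes measured, the others not analysed here) and the alternatives were chosen with earlier results of these data known. Genes were named by rule: the 30 highest and 30 lowest called, non-overlapping differences outside replication, mitosis, ribosome assembly and histones, up to 6 members of each list by smallest p, up to 3 called against its leading direction, 12 each way for the comparison with other lines, and a fixed set. The text gives a part of them. Gene starts and promoter letters come from RefSeq GRCh38.p14, with 9711 of 12165 genes matched. Alternatives were median centring, a pseudocount of 16, repeated quantile normalization, leaving out the dimmest 33.3% of genes, averaged probe sets, no _x_at or _s_at probe sets, the replicate number as a block, array weights, a trended robust prior, the 6 MOLM-14 arrays alone, and each array left out.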

Additional observations from a re-analysis of the deposited data

Results flagged for a closer look

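The R406 effect in MOLM-14 differed from the mean effect in the other 3 lines, by a limma test of the difference itself, for 2869 genes in the higher direction and 2711 in the lower. Of the genes the report gives for this comparison, AXL (4.23), IL10RA (2.86), CD9 (3.18) and HMOX1 (1.69) were higher in MOLM-14, and TNF (-4.57), EGR1 (-4.20), IGFBP2 (-3.66) and MARCKSL1 (-3.73) were lower, as log2 differences. Groups of 3 arrays are too small for a test of single arrays that stand apart.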

How the results depend on the processing

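Without _x_at and _s_at probe sets 8507 genes were left, of which 2421 rose and 1840 fell (492 and 662 at least 2-fold), and 1826 differed upward and 1630 downward from the other lines. That setting put the rising share at 50% for the MYC network, 33.3% for inhibitory receptors, 10% for lipid efflux and 80% for the aryl hydrocarbon receptor list. The rising share of cytosolic ribosomal proteins, 37.1%, was 24.2% with repeated quantile normalization, 12.9% with median centring, 58.1% with a pseudocount of 16, 58.1% with a trended robust prior and 14.5% with the 6 MOLM-14 arrays alone. The ACTB ratio difference was 0.26 with repeated quantile normalization. The cause of these shifts, other than the fewer genes tested, was not tested.

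SFPQ was at 0.64 without _x_at and _s_at probe sets, and VWA8 at -0.11 with averaged probe sets, both against their sign above. That VWA8 value was not called. Of 256 genes named, 8 lost a call in at least 1 alternative while keeping their sign: CEBPB, DUSP7, MCL1, MEF2C, NUP214, SPI1, SYK and TYRO3. Calls were gained in 10 comparisons of a named gene with an alternative. With the replicate number as a block 3708 genes rose and 3017 fell. After the group mean of each gene was subtracted, the residuals of same-numbered MOLM-14 arrays correlated at -0.037, -0.084 and 0.071. By these residuals 1 of 3 DMSO arrays matched its own number best, so the numbers were not taken as pairs. With the 6 MOLM-14 arrays alone, 3217 rose and 2837 fell, and 87.5% of calls were kept. Leaving out any single MOLM-14 array left 3438 to 3689 genes that rose and 2908 to 3007 that fell. Without KG-1 R406 replicate 2, 3850 rose and 3081 fell. Dim probe sets near the bottom of the scale, such as CD14 and ITGB3, cannot show a fall.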

Other observations

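Lipid handling and the cytoskeleton were mixed. In the lipid efflux list 7 of 20 measured members rose and 4 fell (median 0.059), with the transporter ABCA7 at 2.92 ± 0.12, MYLIP, which marks lipoprotein receptors for breakdown, at 1.58 and SOAT1, which stores cholesterol as esters, at -0.79. In the list of the aryl hydrocarbon receptor 5 of 10 measured members rose and 2 fell (median 0.34), with the receptor gene AHR at 0.54 and its partner ARNT at 0.69. In the pentose phosphate list 8 of 12 measured members fell and 3 rose (median -0.79), with the isomerase RPIA at -1.24. In the actin list 15 of 39 measured members rose and 13 fell (median 0.10). The filament-severing protein gelsolin, GSN, had intensities of 467, 453 and 427 with DMSO and 1179, 1096 and 1097 with R406 and rose by 1.32 ± 0.11, and the small GTPase RHOC rose by 1.28. Tropomyosin TPM4 was at -2.19, profilin PFN1 at -1.05 and moesin MSN at -0.86.

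Among ATF4 targets 13 of 19 measured members fell and 5 rose (median -0.50). The asparagine enzyme ASNS was at -2.20 and TRIB3 at -2.03, whereas DDIT3 (CHOP) rose by 1.49 and PPP1R15A (GADD34), which reverses the translation block, by 1.27. DDIT3 had intensities of 72.3, 80.5 and 77.04 with DMSO and 229.9, 212 and 210.3 with R406, with no overlap of groups.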
